A study of Mus musculus with 4 samples.

Results

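A set of 10 transcription factor genes known for gonad formation and Sertoli cell identity was followed in whole testes of mice on postnatal day 3. The set holds Sox9, Sox8, Wt1, Gata4, Gata1, Nr5a1, Nr0b1, Lhx9, Emx2 and Foxl2. These genes were chosen by name, with earlier results of these data known, and all 10 are among the 22609 genes of the deposited count table. The mutant group holds 2 libraries from testes labelled with a dominant-negative thyroid hormone receptor alpha 1, a receptor form that blocks the normal one. The wild-type group holds 2 libraries labelled with the wild-type receptor. The animals of both groups came from crossing AmhCre mice with heterozygous carriers of the TRαAMI allele of Thra, on a mainly C57BL/6J background. AmhCre expresses Cre recombinase from the promoter of the anti-Müllerian hormone gene, which is active in Sertoli cells, and the series' title restricts the mutation to those cells. The labels name no treatment. They give neither the AmhCre status of wild-type animals nor the number of animals behind a library, so the spread behind each p-value is that of these libraries and may be technical. Paired values are given in the order replicate 1, replicate 2. The series asks which testis genes depend on this receptor directly or indirectly.

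Sertoli cells are the supporting cells of the seminiferous tubule, and they arise from the surface epithelium of the embryonic gonad. Emx2, Lhx9, Wt1, Gata4 and Nr5a1 are needed to build the early gonad of both sexes, and Wt1, Gata4 and Nr5a1 stay on in Sertoli cells. Sox9, with its relative Sox8, then directs these cells to the Sertoli fate, while Foxl2 holds the opposite, ovarian granulosa fate. Gata1 belongs to a later stage of the Sertoli cell, and Nr0b1 (Dax1) encodes a nuclear receptor without a usual DNA-binding domain that restrains Nr5a1. Thyroid hormone acts on Sertoli cells through this receptor and limits their proliferation after birth.

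Of the 10 regulators, Lhx9 rose 1.6-fold and Gata1 fell 2.64-fold in mutant testes, and the other 8 were not called. Neither call held when a wild-type library was left out. The Gata1 call was also lost by limma voom and with no filter on low counts. Sox8, Wt1, Gata4 and Nr5a1 each had a 95% interval of the fold change that stayed within 1.5-fold in both directions. Nr0b1 and Sox9 were read at lower levels in mutant testes without passing the threshold, and the Sox9 value rested on one wild-type library. A gene was called at an adjusted p below 0.05 by edgeR's quasi-likelihood test over the 14788 genes that passed a filter on low counts, which all 10 regulators passed. Over all tested genes 3.15% were called higher and 2.52% lower, 5.67% in all, against 1 higher and 1 lower of the 10 regulators. The groups did not overlap for 7 of the 10, 4 with mutant testes higher and 3 lower, against 57.3% of all tested genes, 28.3% higher and 29% lower. Under the other settings named below, the share of all genes called in either direction was 2.67% with no filter, 6.94% by DESeq2, 3.93% by limma voom, 0.491% and 0.967% without wild-type replicates 1 and 2, and 5.58% and 8.59% without mutant replicates 1 and 2. The median log2 fold change (mutant minus wild type, as throughout) was 0.07 over the regulators and -0.01 over all tested genes. In whole tissue, fewer cells of a type and less RNA per cell cannot be told apart.

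The promoters of the 3 regulators with the smallest p are shown because the receptor binds DNA near the genes it controls directly. RefSeq (GRCm38.p6) windows from 250 bases before to 50 bases after the transcript start were at hand for 6 of the 10 (Lhx9, Gata1, Nr0b1, Emx2, Sox8 and Foxl2). Capitals mark matches on either strand to 4 motifs, namely the nuclear receptor half-site AGGTCA, that half-site repeated in the same direction after any 4 bases (called DR4, the classical thyroid hormone response element), the GATA site AGATAA or TGATAA, and the SOX site AACAAT or AACAAA. The half-site is contained in DR4, and no other of these motifs contains another.
Lhx9 promoter: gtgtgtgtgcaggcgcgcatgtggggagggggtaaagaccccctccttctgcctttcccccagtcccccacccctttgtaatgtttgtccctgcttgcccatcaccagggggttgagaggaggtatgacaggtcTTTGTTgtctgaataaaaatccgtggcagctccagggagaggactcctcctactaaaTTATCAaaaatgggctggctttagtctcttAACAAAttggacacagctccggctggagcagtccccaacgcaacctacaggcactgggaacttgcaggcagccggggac
Gata1 promoter: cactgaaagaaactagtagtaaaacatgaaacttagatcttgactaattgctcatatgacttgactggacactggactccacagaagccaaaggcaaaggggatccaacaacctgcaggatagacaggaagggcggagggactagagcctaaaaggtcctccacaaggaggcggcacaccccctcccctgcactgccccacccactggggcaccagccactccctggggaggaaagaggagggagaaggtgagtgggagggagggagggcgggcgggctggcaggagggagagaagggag
Nr0b1 promoter: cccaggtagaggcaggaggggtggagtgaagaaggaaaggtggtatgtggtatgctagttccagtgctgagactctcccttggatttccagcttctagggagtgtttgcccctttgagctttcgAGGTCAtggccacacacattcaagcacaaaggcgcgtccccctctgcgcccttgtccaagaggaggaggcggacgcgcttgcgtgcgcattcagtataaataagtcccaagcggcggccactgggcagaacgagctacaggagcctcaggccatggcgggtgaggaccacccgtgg
The Lhx9 window lies at chr1:138842395-138842694 on the minus strand, the Gata1 window at chrX:7967861-7968160 on the minus strand, and the Nr0b1 window at chrX:86191525-86191824 on the plus strand. Lhx9 held a GATA site at -59 to -54 and SOX sites at -116 to -111 and -29 to -24, counted from the transcript start. Nr0b1 held 1 half-site at -126 to -121, and Gata1 held none of the motifs in this window. The Emx2, Sox8 and Foxl2 windows held none either. Among 32851 promoter windows of this length, 16.3% held the half-site, 0.0152% DR4, 18.6% a GATA site and 27.7% a SOX site. A match describes letters only, and the lack of a match says only that these letters are not in the window. Other transcript starts of these genes, Gata1 included, were not searched.

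**Figure D1:**
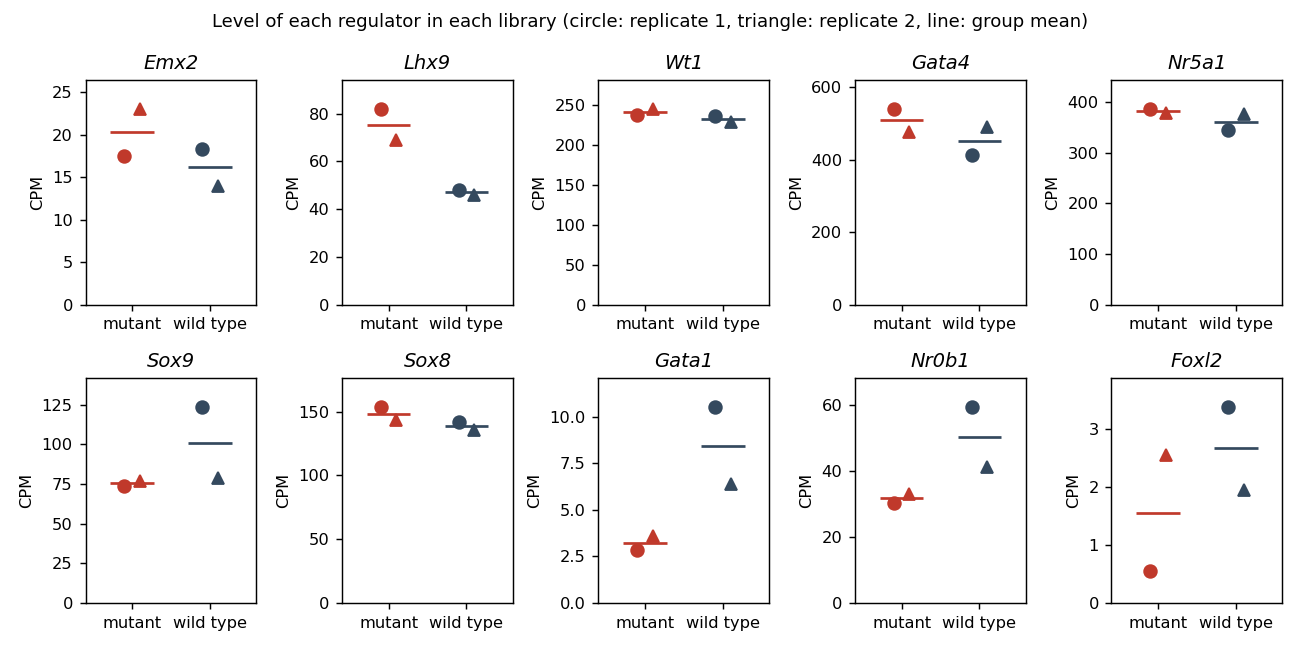
Level of each of the 10 regulators in CPM (vertical axes from 0), mutant libraries left of wild-type libraries, with a circle for replicate 1, a triangle for replicate 2 and a line for the group mean. Both Lhx9 values in mutant testes (82.0 and 68.9 CPM) lie above both in wild type (48.2 and 46.0), both Gata1 and both Nr0b1 values lie below, and the Emx2, Gata4 and Foxl2 groups overlap.

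Levels are given in CPM, a gene's reads divided by its library's TMM-scaled total. Lhx9, a LIM homeobox gene of the gonadal surface and of interstitial cells, was read at 82.0 and 68.9 CPM in the mutant pair, against 48.2 and 46.0 CPM in the wild-type pair. Both mutant libraries stood above both wild-type libraries, and the wild-type pair lay closer together than the mutant pair. The group means were 75.4 ± 9.27 CPM in mutant and 47.1 ± 1.59 CPM in wild-type testes (SD, n = 2 each), and the log2 fold change was 0.68 ± 0.11 (SE; edgeR adjusted p = 0.0212, 95% interval 0.41 to 0.94). The gene lies on chromosome 1 (140721763 to 140745153, minus strand, mm9). Its direction was the same without any one library, with log2 fold changes of 0.55 without mutant replicate 1, 0.80 without mutant replicate 2 and 0.71 and 0.64 when the first or the second wild-type library was left out. Its adjusted p was 0.105 when wild-type replicate 1 was left out and 0.0932 when wild-type replicate 2 was, so that it was not called in either fit.

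Markers of mesothelium and surface epithelium, the layers in which Lhx9 is also made, were read beside it. Of 11 such markers tested, without Lhx9 and Wt1, 5 rose, none fell and 6 were not called, with a median log2 fold change of 0.69. Their summed level was 648 and 830 CPM in the mutant pair, against 486 and 491 CPM in the wild-type pair. Of this list Muc16 was not in the table, and no member in the table was at 0. Upk3b, a uroplakin gene of mesothelium, stood at 162 and 209 CPM in mutant libraries and at 85.7 and 103 CPM in wild-type libraries (log2 fold change 0.98 ± 0.14, adjusted p = 0.0127). The other strong rises were Lrrn4 (1.28 ± 0.17), Upk1b (1.12 ± 0.17) and Krt19 (1.01 ± 0.17) on the log2 scale, all mesothelial or epithelial genes. No marker of this list was called with wild-type replicate 1 left out, and 3 were with wild-type replicate 2 left out, Upk3b not among them (adjusted p = 0.0524). Among the 2 mutant libraries the order of Lhx9 was the reverse of the order of the marker sum. Lhx9 was highest in mutant replicate 1, and the marker sum was highest in mutant replicate 2. Single markers differed in this order. Without mutant replicate 1 or 2, the log2 fold change of Aldh1a2 was 0.39 or 0.62, and that of Krt18 was 0.21 or -0.61. The part of any of these cells in the Lhx9 value was not tested.

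Emx2, the homeobox gene without which the urogenital tract does not form, stood at 17.6 and 23.0 CPM in the mutant pair, against 18.3 and 14.0 CPM in the wild-type pair. The groups overlapped, and mutant replicate 1 lay between the wild-type libraries. The log2 fold change of 0.33 ± 0.20 was not called (adjusted p = 0.339), and its 95% interval of -0.13 to 0.79 leaves room for a rise as large as that of Lhx9. Emx2 lies on chromosome 19 (59533180 to 59539847, plus strand, mm9).

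Wt1, the zinc finger gene of the early gonad and of Sertoli cells, stood at 237 and 245 CPM in mutant libraries and at 236 and 229 CPM in wild-type libraries. The 4 values lay within a narrow band, and the log2 fold change was 0.05 ± 0.08 (adjusted p = 0.75, 95% interval -0.13 to 0.23). Mesothelial cells make Wt1 as well. Nr5a1 (SF-1), the nuclear receptor of all steroid-making cells and of Sertoli cells, stood at 386 and 379 CPM in mutant libraries and at 345 and 376 CPM in wild-type libraries. Its log2 fold change was 0.09 ± 0.09 (adjusted p = 0.573, 95% interval -0.11 to 0.28). Gata4, a zinc finger gene of gonadal somatic cells and the most abundant of the 10 regulators, stood at 540 and 477 CPM in mutant libraries and at 413 and 490 CPM in wild-type libraries. Those groups overlapped, with a log2 fold change of 0.17 ± 0.11 (adjusted p = 0.371, 95% interval -0.08 to 0.43). A change of more than 1.5-fold in either direction lay outside the interval of each of these 3 genes and of Sox8, 4 of 10 regulators, against 55.2% of all tested genes with an interval this close. Wt1 and Nr5a1 are both on chromosome 2 (104966686 to 105013773, plus strand, and 38548176 to 38570062, minus strand, mm9), and Gata4 is on chromosome 14 (63817759 to 63890529, minus strand).

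Sox9, the factor that turns supporting cells into Sertoli cells, stood at 73.9 and 77.1 CPM in the mutant pair, against 123 and 78.8 CPM in the wild-type pair. Both mutant libraries and wild-type replicate 2 lay close together, and wild-type replicate 1 stood apart above them. The ratio of wild-type replicate 1 to replicate 2 was 1.56, with an exact 95% interval of 1.44 to 1.70 that covers counting error only. The log2 fold change was -0.42 ± 0.18 and was not called (adjusted p = 0.189), and it stood at -0.06 with wild-type replicate 1 left out and at -0.71 with wild-type replicate 2 left out, where it passed (adjusted p = 0.0419). Sox8, which backs up Sox9 in the fetal and postnatal testis, stood at 153 and 143 CPM in mutant libraries and at 142 and 135 CPM in wild-type libraries, with a log2 fold change of 0.10 ± 0.08 (adjusted p = 0.513, 95% interval -0.10 to 0.29). Per kilobase of merged exon, Sox9 made up 25.8% and 28.4% of the summed Sox8, Sox9 and Sox10 level in the mutant pair, against 39.0% and 30.0% in the wild-type pair, so that Sox8 was the more abundant of the pair in every library. Sox9 lies on chromosome 11 (112643538 to 112649074, plus strand) and Sox8 on chromosome 17 (25702837 to 25707631, minus strand, both mm9).

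Gata1, the X-linked GATA factor of blood cell precursors that Sertoli cells also make after birth, fell in mutant testes. It had 31 and 56 reads in the mutant pair, against 140 and 65 reads in the wild-type pair, which is 2.82 and 3.57 CPM in mutant and 10.5 and 6.37 CPM in wild-type testes. Both mutant libraries lay below both wild-type libraries, and the wild-type pair was itself spread by a ratio of 1.65 (exact 95% interval 1.22 to 2.25, counting error only). The log2 fold change was -1.40 ± 0.32 (adjusted p = 0.0445, 95% interval -2.14 to -0.67). It kept its direction without any one library, at -1.26 without mutant replicate 1, -1.61 without mutant replicate 2, and -0.97 and -1.69 when the first or the second wild-type library was left out. It was not called when wild-type replicate 1 (adjusted p = 0.198) or wild-type replicate 2 (adjusted p = 0.0651) was left out, by limma voom (adjusted p = 0.0615) and with no filter on low counts (adjusted p = 0.0633). Gata1 lies on chromosome X (7536386 to 7555197, minus strand, mm9). Among Gata1, Gata4 and Gata6, Gata1 was the scarcest, at 0.668% and 0.939% of their summed level per kilobase in the mutant pair, against 3.08% and 1.63% in the wild-type pair.

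Markers of the other cells that make Gata1 were read beside it. Of 9 red cell and megakaryocyte markers tested, none was called in either direction by edgeR, limma voom or DESeq2, 2 stood at an unadjusted p below 0.05 by edgeR and by limma voom and none by DESeq2, and the median log2 fold change was 0.11. Their sum was 53.2 and 65.4 CPM in the mutant pair, against 42.4 and 57.2 CPM in the wild-type pair. Hba-a1 and Hba-a2 were listed at 0 in every library and Hbb-b1 and Hbb-b2 at 0 to 6 reads, and these are near-identical copies among which the authors' counting could split or drop reads. Alas2, the heme synthesis gene of red cells, stood at 19.1 and 22.0 CPM in mutant and 9.91 and 23.5 CPM in wild-type libraries. The members with the smallest p were Nfe2 (log2 fold change 0.78 ± 0.26, adjusted p = 0.117) and Itga2b (0.69 ± 0.30, adjusted p = 0.192), and their groups did not overlap, with mutant testes higher. Mast cells also make Gata1, and of 6 mast cell and eosinophil markers tested 3 rose and none fell, with a median log2 fold change of 1.5. Cpa3, the mast cell carboxypeptidase gene, stood at 29.0 and 31.9 CPM in mutant and 3.76 and 7.74 CPM in wild-type libraries (2.45 ± 0.27, adjusted p = 0.00577), and the proteases Tpsb2 and Cma1 rose by 2.18 ± 0.19 and 2.03 ± 0.19 on the log2 scale. Of the 12 listed, Ms4a2 was at 0 in wild-type libraries and at 4 and 3 reads in the mutant pair. Sertoli cell markers other than the regulators summed to 8953 and 9119 CPM in the mutant pair, against 10406 and 11504 CPM in the wild-type pair, with 5 of 19 tested called lower, none higher and a median of -0.26, and none in the table was at 0. With wild-type replicate 2 left out 3 of the 19 were called. The part of Sertoli cell number in the Gata1 value was not tested.

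**Figure D2:**
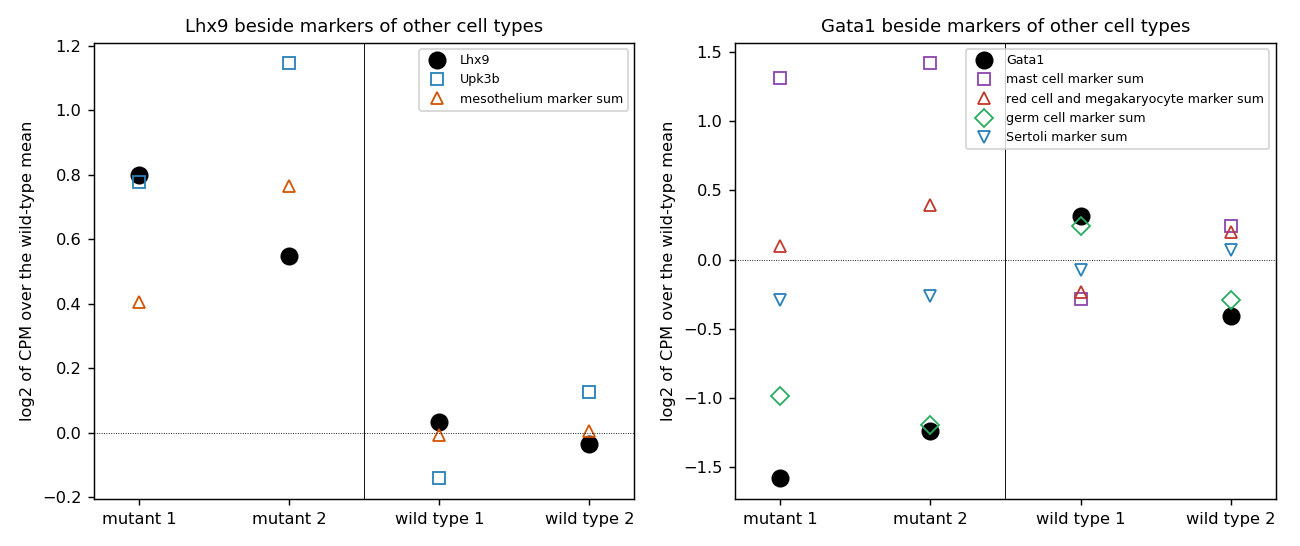
Lhx9 (left) and Gata1 (right) as filled circles beside markers of other cells as open symbols, each as log2 of CPM over its wild-type mean (vertical axes), in the 2 mutant libraries and then the 2 wild-type libraries. Marker sums leave out the 10 regulators, and the summed mast cell markers are higher in mutant testes (141 and 152 CPM against 46.6 and 67.2 CPM in wild type) while Gata1 is lower.

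Nr0b1, the X-linked brake on Nr5a1, stood at 30.4 and 32.9 CPM in the mutant pair, against 59.3 and 41.2 CPM in the wild-type pair. Both mutant libraries lay below both wild-type libraries, and wild-type replicate 1 was again the highest, by a ratio of 1.44 over replicate 2 (exact 95% interval 1.28 to 1.62, counting error only). The log2 fold change was -0.67 ± 0.17, and its adjusted p of 0.0604 by edgeR missed the threshold. It passed by DESeq2 (adjusted p = 0.0168), without mutant replicate 1 (-0.61, adjusted p = 0.0495), without mutant replicate 2 (-0.73, adjusted p = 0.0172) and with wild-type replicate 2 left out (-0.90, adjusted p = 0.044). Leaving out wild-type replicate 1 gave -0.38 (adjusted p = 0.196). Nr0b1 lies at 83437103 to 83441286 of chromosome X (plus strand, mm9). Sertoli and Leydig cells both make it, and markers of Leydig cells and of the adrenal cortex were read beside it. Of 10 Leydig cell markers tested, Thbs2 rose (0.51 ± 0.10, adjusted p = 0.0284), Vcam1 fell (-0.85 ± 0.14, adjusted p = 0.0194) and 8 were not called; neither call held when a wild-type library was left out. The list had a median of 0.12 and a sum of 1691 and 1716 CPM in mutant against 1436 and 1572 CPM in the wild-type pair. Of 4 adrenocortical markers tested, edgeR, DESeq2 and limma voom called none, and 1 stood at an unadjusted p below 0.05, Akr1b7 at 0.46 ± 0.17 (adjusted p = 0.133), while Cyp21a1, which makes adrenal steroids, stood at -0.58 ± 0.30 (adjusted p = 0.269). The adrenocortical sum was 33.5 and 34.6 CPM in mutant and 29.8 and 31.6 CPM in wild-type libraries.

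Foxl2, the forkhead gene of the granulosa fate, was at the edge of detection. It had 6 and 40 reads in the mutant pair, against 45 and 20 reads in the wild-type pair. The 2 mutant libraries differed more from each other than the group means did, the ratio of mutant replicate 1 to 2 being 0.214 (exact 95% interval 0.0741 to 0.508). The log2 fold change of -0.69 ± 0.56 was not called (adjusted p = 0.482), and it stood at -0.10 without mutant replicate 1 and at -2.31 without mutant replicate 2, where it passed (adjusted p = 0.0293). Foxl2 lies on chromosome 9 (98856026 to 98858545, plus strand, mm9) as 1 exon.

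**Figure D3:**
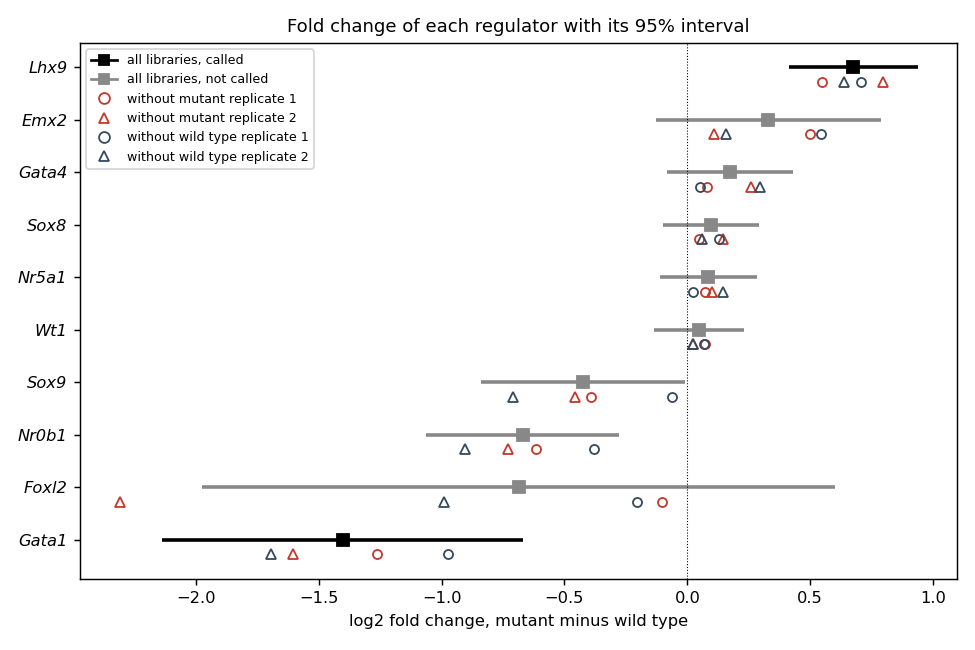
Log2 fold change of each of the 10 regulators (horizontal axis, mutant minus wild type) with its 95% interval as a bar, black where called and grey where not, and open symbols for the values without each library. Lhx9 (0.68) and Gata1 (-1.40) keep their side of 0 in every such fit, Sox9 moves to -0.06 without wild-type replicate 1, and Foxl2 spans -0.10 to -2.31.

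Compared per kilobase of merged exon (RPKM computed here from CPM), the regulators spanned a wide range of levels. In wild-type testes Gata4 was highest (115 ± 13.9 RPKM, SD, n = 2, as for all levels here), followed by Nr5a1 (85 ± 5.18), Sox8 (44.4 ± 1.52), Wt1 (37.6 ± 0.858), Nr0b1 (27.8 ± 7.07), Sox9 (24.4 ± 7.59), Lhx9 (8.50 ± 0.286), Emx2 (6.03 ± 1.14), Gata1 (3.46 ± 1.2) and Foxl2 (1.06 ± 0.398 RPKM). Mutant testes kept this order except that Sox9 (18.3 ± 0.551 RPKM) stood above Nr0b1 (17.5 ± 0.996 RPKM). The Nr0b1 and Sox9 levels overlapped between libraries in both groups, and no other neighbours in the order did. The mutant levels of the 2 called genes were 13.6 ± 1.67 RPKM for Lhx9 and 1.31 ± 0.219 RPKM for Gata1.

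In the mutant pair 4 of the 10 regulators were higher in replicate 1 than in replicate 2, and in the wild-type pair 8 of 10 were, against 50.5% of all tested genes in either pair. The 4 regulators with negative fold changes (Gata1, Foxl2, Nr0b1 and Sox9) were lower in replicate 1 of the mutant pair and higher in replicate 1 of the wild-type pair. The summed level of germ cell markers was higher in replicate 1 of both pairs. It was 412 and 355 CPM in the mutant pair, against 965 and 665 CPM in the wild-type pair. In the mutant pair this order was not shared by every marker. Without mutant replicate 1 or 2, the log2 fold change of Stra8 was -3.33 or -3.94, and that of Dazl was -1.37 or -1.31. With all libraries 11 of 17 markers tested were called lower and none higher, with a median of -1.14. Dazl, Stra8, Taf7l and Nanos2, all made by germ cells, fell 2.54-fold, 11.8-fold, 2.75-fold and 11.6-fold. Stra8 stood at 6.93-fold with wild-type replicate 1 left out, and Nanos2 at 19.8-fold and 7.27-fold with mutant replicate 1 or 2 left out. Nanos2 was not called when a wild-type library was left out, nor Taf7l when wild-type replicate 1 was, and the list's 11 calls came down to 2 in that fit. Dppa3, a germ cell gene of the embryo, had 0 to 2 reads. Thra, the gene that carries the mutant allele, stood at 237 and 194 CPM in the mutant pair, against 398 and 257 CPM in the wild-type pair. It was not called (edgeR adjusted p = 0.0964), but it passed with a replicate block. Its reads do not separate the 2 alleles and so say nothing of the genotype labels. Thrb, which encodes the beta receptors, stood at 8.64 and 8.43 CPM in mutant against 7.96 and 8.72 CPM in wild-type libraries. The part of germ cell content in these 4 values was not tested.

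The other genes of gonad formation and testis determination were read as a list. Of 29 listed, 27 were tested, with a median log2 fold change of 0.10. Of those tested, 3 rose, Ptgds and Zfpm2 among them, Dmrt1 fell and 23 were not called. The shares over all tested genes were 3.15% called higher and 2.52% lower. Zfpm2 (Fog2), the cofactor that Gata4 needs in the gonad, stood at 40.1 and 46.5 CPM in mutant libraries and at 27.8 and 30.8 CPM in wild-type libraries (0.57 ± 0.13, adjusted p = 0.0428). Both mutant libraries were above both wild-type libraries, but leaving out any of wild-type replicate 1, wild-type replicate 2 or mutant replicate 2 ended the call. Dmrt1, which keeps Sertoli cells from turning to the granulosa fate and also acts in germ cells, stood at 155 and 152 CPM in mutant and 308 and 264 CPM in wild-type libraries (-0.90 ± 0.10, adjusted p = 0.00577), and was called in each of the 4 fits without one library. Sry, the switch gene of testis determination whose activity ends in the embryo, was listed at 0 in all 4 libraries. Cbx2, a Polycomb gene upstream of Sry, and Tcf21, a factor of interstitial cells, had log2 fold changes of -0.0040 ± 0.18 and -0.06 ± 0.09, and Fgf9, the growth factor that acts with Sox9, was at 4.73 and 5.62 CPM in mutant against 3.83 and 3.14 CPM in wild-type libraries (0.57 ± 0.27, adjusted p = 0.237).

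Of the 15 ovarian pathway genes listed 13 were tested, of which Wnt4 rose, none fell and 12 were not called, with a median of 0.19. Wnt4, a signal of the ovarian fate that stromal and mesothelial cells also make, stood at 33.9 and 37.1 CPM in mutant against 24.2 and 20.6 CPM in wild-type libraries, and it was not called when a wild-type library or mutant replicate 2 was left out. Rspo1, which enhances Wnt signalling in the ovary, was at 0.46 ± 0.17 (adjusted p = 0.138), the activin-binding gene Fst at -0.36 ± 0.24 (adjusted p = 0.388) and the granulosa factor Runx1 at 0.33 ± 0.32 (adjusted p = 0.561) on the log2 scale.

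Of 22 Sertoli genes listed as downstream of these regulators, 21 were in the table and tested, of which Ptgds rose, Cldn11, Amhr2, Etd and Aard fell and 16 were not called, with a median of -0.04. Rhox5 was not in the table. Amh, a joint target of Sox9, Nr5a1, Wt1 and Gata4, stood at 704 and 672 CPM in mutant against 777 and 618 CPM in wild-type libraries (-0.02 ± 0.12, adjusted p = 0.933). Its receptor gene Amhr2, which Wt1 controls, stood at 149 and 141 CPM in mutant against 259 and 240 CPM in wild-type libraries (-0.79 ± 0.09, adjusted p = 0.00577). Cldn11, a tight junction gene of the blood-testis barrier, stood at 51.4 and 56.5 CPM in mutant against 126 and 126 CPM in wild-type libraries (-1.22 ± 0.09, adjusted p = 0.00236). Aard and Etd, both testis genes of Sertoli cells, fell by 1.01 ± 0.14 and 0.94 ± 0.13 on the log2 scale. Ptgds, which is induced by Sox9 and makes prostaglandin D2, stood at 116 and 128 CPM in mutant against 70.1 and 74.2 CPM in wild-type libraries, which is 0.76 ± 0.09 higher on the log2 scale (adjusted p = 0.0089). Ptgds was not called with wild-type replicate 1 left out (adjusted p = 0.0758), nor Etd with wild-type replicate 2 left out (adjusted p = 0.0572). The hedgehog ligand gene Dhh of Sertoli cells was at -0.26 ± 0.08 (adjusted p = 0.0941), with 229 and 228 CPM in mutant against 265 and 284 CPM in wild-type libraries.

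**Figure D4:**
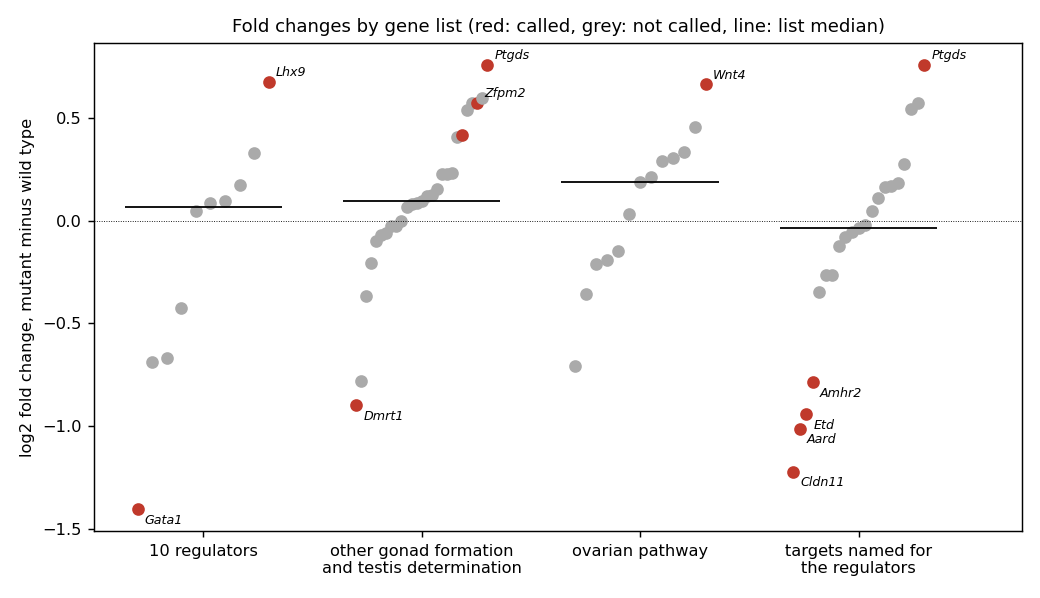
Log2 fold change (vertical axis, mutant minus wild type) of every tested gene in the 10 regulators and in 3 related lists, with called genes in red, those described in the text named, others in grey and a line at each list's median. The medians lie at 0.07, 0.10, 0.19 and -0.04, and the called genes that fell are Gata1, Dmrt1, Amhr2, Etd, Aard and Cldn11.

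In the mm9 annotation, 4 of the 10 regulators start head to head with a long noncoding RNA gene on the opposite strand within 300 bases, against 0.39% of the 20238 protein-coding genes of the table. These pairs are Wt1 with AI314831 (18 bases apart), Emx2 with Emx2os (54 bases), Sox9 with BC006965 (247 bases) and Foxl2 with Foxl2os (296 bases). The 300-base window ends just past the widest of these pairs, and no other window was counted. The exons of these pairs do not overlap, so unstranded counting does not mix them where the annotation is complete. AI314831 stood at 8.64 and 9.89 CPM in mutant against 10.9 and 9.80 CPM in wild-type libraries, and Emx2os at 3.73 and 4.15 CPM in mutant against 3.98 and 2.74 CPM in wild-type libraries. Foxl2os stood at 1.55 and 2.36 CPM in mutant against 1.95 and 2.55 CPM in wild-type libraries, and none of the 3 was called. BC006965 had 3 and 8 reads in mutant and 10 and 5 reads in wild-type libraries, below the filter. Of the 15 tested neighbours nearest to the 10 regulators on either side, 3 (20%) fell and none rose. Over all tested genes, 2.52% were called lower and 3.15% higher. The 3 neighbours are named here after their values were seen. The noncoding RNA gene 2610035D17Rik, 256134 bases beyond Sox9, stood at 16.1 and 16.5 CPM in mutant against 27.4 and 27.1 CPM in wild-type libraries (-0.74 ± 0.14, adjusted p = 0.0272). Hdac6, a cytoplasmic deacetylase gene 11370 bases from Gata1, stood at 91.9 and 99.1 CPM in mutant against 139 and 121 CPM in wild-type libraries (-0.45 ± 0.10, adjusted p = 0.0415), and Neil2, a DNA repair gene 5380 bases from Gata4, at 2.64 and 3.13 CPM in mutant against 7.59 and 5.69 CPM in wild-type libraries (-1.20 ± 0.28, adjusted p = 0.0494). None of these 3 was called when a wild-type library was left out, nor Hdac6 and Neil2 when mutant replicate 1 was, at log2 fold changes between -0.34 and -1.38 in these fits.

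Gene counts summed to between 10230512 and 15636832 per library, and the log2 CPM of the 2 mutant libraries correlated at 0.988 and of the 2 wild-type libraries at 0.991, with 0.965 to 0.980 across groups. Skeletal muscle markers set the mutant libraries apart, with sums of 2842 and 778 CPM in the mutant pair, against 105 and 80.1 CPM in the wild-type pair, and 9 of 12 called higher and none lower by edgeR. DESeq2 called 10 of these 12, limma voom and edgeR's robust option called none, and edgeR called none with wild-type replicate 1 left out and 1 with wild-type replicate 2 left out. Acta1, the skeletal actin gene, had 9619 and 3473 reads in mutant and 8 and 7 reads in wild-type libraries. Of the 12 macrophage and leukocyte markers tested 3 rose and none fell by edgeR (median 0.66), against 4 called by DESeq2, 1 by limma voom and 1 to 6 by edgeR with 1 library left out, with the leukocyte gene Laptm5 at 1.16 on the log2 scale, and of 12 peritubular and stromal markers edgeR and limma voom called none, with 5 at an unadjusted p below 0.05 by edgeR, and DESeq2 called 1. Sertoli, Leydig and germ cell markers were read in every library.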

How the data were processed

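Polyadenylated RNA of whole testes was sequenced as single reads of 100 bases, per the labels' protocols. The authors deposited 1 table of counts per gene and library, whole numbers with no normalisation. The unit recorded for the deposited table is expected counts, for the sole reason that its foot lines hold percentages; these lines name no gene and were left out. Reads in no annotated gene made up 14.4% to 17.3% in mutant and 13.8% to 15.3% in wild-type libraries. The submitters' processing notes name CASAVA 1.8.1, TopHat 1.4.0, HTSeq, DESeq2 and mm9, with no role or order, and whether counting used strand is not given in the sources used here.

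Counts were tested here with edgeR 4.0.16 (quasi-likelihood F test, TMM scaling, minimum count 10 and minimum total 15, two-sided), and p-values were adjusted by Benjamini-Hochberg over 14788 genes. DESeq2 1.42.0, limma voom (limma 3.58.1), other scalings, other filters, a replicate block and fits without each library were alternatives. Levels in CPM use TMM-scaled library totals, and RPKM divides it by merged exon length in GENCODE M1 (mm9). The replicates of each group differed beyond sampling noise. Intervals on read ratios cover counting error only.

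The 10 regulators and all gene lists were chosen with earlier results of these data known. Besides the regulators, Thra and Thrb, the text names up to 4 called genes of each list with the smallest adjusted p (or the 2 with the smallest p), a short list of pathway genes chosen by name, and others said to be named after their values were seen. Some genes that this rule covers are not reported here.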

Additional observations from a re-analysis of the deposited data

How the results depend on the processing

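Of 140 values of the 10 regulators under another setting, none changed sign, 127 kept their side of the threshold, 6 newly passed it and 7 no longer did. Among all genes, 282 were called higher and 218 lower with no filter on low counts, 309 higher by limma voom, against 466 higher and 373 lower. Of the regulators, none was called lower with no filter, by limma voom or with a replicate block, and 2 were by DESeq2; 2 other gonad formation genes were called with no filter, against 4. Leaving out 1 library at a time gave 34 to 818 genes higher, 40 to 477 lower, 0 to 1 regulators higher, 0 to 3 regulators lower, 1 to 4 gonad formation genes, 0 to 2 ovarian genes and 4 to 5 Sertoli targets called. The lowest counts over all genes came without a wild-type library, 74 and 148 called in either direction, while fits without a mutant library, with as few samples, called 852 and 1295, against 839 with all libraries; the cause was not tested. Deviations of same-numbered libraries from their group means correlated at -0.03. With 2 libraries a group, this value cannot tell whether replicate numbers pair the libraries. The replicate block gave 512 genes higher and 341 lower, with Gata1 at -1.35 (edgeR adjusted p = 0.0569). Foxl2 had the fewest reads of the 10, 46 in mutant and 65 in wild-type testes, which limits its precision.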

Other observations

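Both Gata1 and Nr0b1 lie on the X chromosome. Of 575 tested X-linked genes, 42 (7.3%) were called lower and 15 (2.61%) higher by edgeR, against 331 lower (2.33%) and 451 higher (3.17%) of the other 14213 tested genes, which include genes with no chromosome matched. The median log2 fold change of the X-linked genes was -0.01. Mageb4, a gene 54306 bases from Nr0b1 that was named after its values were seen, stood at 8.74 and 11.1 CPM in the mutant pair, against 33.9 and 16.3 CPM in the wild-type pair, and was not called (-1.35 ± 0.33, edgeR adjusted p = 0.0528). Its log2 fold change was -0.70 with wild-type replicate 1 left out, and it was called with any of the other 3 libraries left out (adjusted p = 0.00853, 0.00187 and 0.0252).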
